A study of Mus musculus with 9 samples.

Results

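Genes of the response to low oxygen were followed in single-cell RNA-seq of mouse ependymoma and control brain, namely Adm, Car9, Bnip3, Ndrg1, Egln3, Ankrd37, Ddit4, Hilpda, P4ha1 and Hif1a. They were found by symbol, and all 10 were present among the 32285 mouse genes counted. The study set tumors of EP ZFTA-RELA mice, labeled NestinCreERT2;Fus1, against brain of NestinCreERT2;TdT mice, all 6 to 8 weeks old. Both groups carried the tamoxifen-dependent Cre under the Nestin promoter, and only the tumor group carried the conditional ZFTA-RELA fusion allele, which that Cre recombines in embryonic radial glia, so the tumors arise from a single driver in cells of this lineage. The labels name TdT only for the controls. Tissue was dissociated, spun through Percoll and sorted as DAPI-negative and Ter119-negative cells, and UMI counts (unique molecules per gene and cell) were obtained with 10x 5′ chemistry from 5 tumor and 4 control libraries. Each library was taken as 1 mouse. The labels do not state that each came from a separate animal, and p-values measure only the spread between these libraries.

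When oxygen is sufficient, prolyl hydroxylases of the EGLN family modify the alpha subunits of the hypoxia-inducible factors (HIF), and the VHL ubiquitin ligase then marks them for destruction. When oxygen falls, the alpha subunit persists, pairs with ARNT and binds short elements with the core ACGTG or GCGTG near genes for blood vessel growth, glucose use, pH control, mitochondrial turnover and collagen modification. Because this switch acts on protein, the Hif1a transcript is not a measure of HIF activity, and several targets also answer to other signals.

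The putative regulatory sequence of the genes on which the results turn is shown because the members are commonly grouped by this element. Promoters were taken from RefSeq on build GRCm38.p6, from 250 bases before to 50 bases after the start of transcription, and 9 of the 10 members matched, with 10 promoters since Hilpda has a pair of starts. Each is written 5′ to 3′ on the strand of its gene, and capitals mark ACGTG or GCGTG on either strand (CACGT or CACGC when read on the other strand), with adjoining matches run together. The 6 promoters are Adm (chr7:110627407-110627706, plus strand), Hilpda at its downstream start (chr6:29272376-29272675, plus), Ddit4 (chr10:59951721-59952020, minus), Egln3 (chr12:54203825-54204124, minus), Hif1a (chr12:73907617-73907916, plus) and Ankrd37 (chr8:45999801-46000100, minus).
Adm: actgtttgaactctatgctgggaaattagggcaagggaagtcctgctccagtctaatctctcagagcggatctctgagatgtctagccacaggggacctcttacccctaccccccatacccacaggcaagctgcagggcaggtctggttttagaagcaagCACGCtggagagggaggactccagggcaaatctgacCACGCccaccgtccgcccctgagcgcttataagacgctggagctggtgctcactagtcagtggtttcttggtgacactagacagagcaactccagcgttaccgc
Hilpda: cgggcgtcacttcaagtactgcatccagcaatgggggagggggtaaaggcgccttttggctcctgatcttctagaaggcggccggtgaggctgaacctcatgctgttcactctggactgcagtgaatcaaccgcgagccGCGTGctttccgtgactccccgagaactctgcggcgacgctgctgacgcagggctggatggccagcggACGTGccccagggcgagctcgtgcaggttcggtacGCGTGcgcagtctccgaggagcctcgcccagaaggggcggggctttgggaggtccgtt
Ddit4: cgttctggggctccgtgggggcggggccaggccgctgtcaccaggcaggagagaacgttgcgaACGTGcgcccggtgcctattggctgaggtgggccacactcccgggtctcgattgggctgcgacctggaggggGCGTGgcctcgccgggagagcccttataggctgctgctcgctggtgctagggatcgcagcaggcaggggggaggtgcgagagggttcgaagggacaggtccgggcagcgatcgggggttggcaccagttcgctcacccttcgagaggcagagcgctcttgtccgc
Egln3: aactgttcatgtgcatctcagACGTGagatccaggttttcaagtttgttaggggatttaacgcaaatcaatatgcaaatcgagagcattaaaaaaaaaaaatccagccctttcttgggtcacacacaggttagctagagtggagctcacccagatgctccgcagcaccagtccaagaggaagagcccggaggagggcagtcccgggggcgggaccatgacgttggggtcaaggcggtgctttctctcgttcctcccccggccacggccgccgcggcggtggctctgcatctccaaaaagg
Hif1a: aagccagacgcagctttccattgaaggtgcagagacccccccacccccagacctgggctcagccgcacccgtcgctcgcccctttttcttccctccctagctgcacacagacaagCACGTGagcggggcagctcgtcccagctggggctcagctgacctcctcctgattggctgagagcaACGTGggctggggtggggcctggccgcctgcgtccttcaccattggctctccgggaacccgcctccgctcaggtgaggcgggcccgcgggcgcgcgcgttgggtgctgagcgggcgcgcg
Ankrd37: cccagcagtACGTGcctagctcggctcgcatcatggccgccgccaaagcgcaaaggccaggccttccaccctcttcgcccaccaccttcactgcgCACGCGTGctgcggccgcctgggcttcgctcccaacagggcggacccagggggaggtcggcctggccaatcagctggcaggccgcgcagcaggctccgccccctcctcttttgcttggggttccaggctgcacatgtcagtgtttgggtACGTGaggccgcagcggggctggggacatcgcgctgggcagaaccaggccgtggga

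All 10 member promoters held at least 1 match, with between 1 and 5 matches each. Among 32851 mouse promoters of the same length, 43.8% held 1 or more, 20.6% held 2 or more and 8.93% held 3 or more. Adm had 2 matches, at 90 and 54 bases before the start. Ddit4 had 2 and Egln3 had 1, while Ankrd37 had 4, of which 1 pair overlapped in opposite orientations. Hif1a itself held 3 matches, of which 1 pair lay on opposite strands of a single CACGTG. A match of these letters is a description of the sequence and not a binding site.

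The libraries differed in what they held, which bears on every sum over cells. After filtering, 4023 to 6358 control cells and 1720 to 5108 tumor cells remained per library, with 13731800 to 21695609 and 5885675 to 37576079 UMIs. Levels are given as CPM, the UMIs of a gene scaled to a fixed total of UMIs of the summed cells (counts per 1000000). Transcripts of the fusion allele were found in 0 control cells and in 78, 900, 97, 3714 and 1056 cells of tumors 1 to 5, so tumors 1 and 3 held few such cells and tumor 4 held most. Cells with neuron markers numbered 5018, 3479, 2932 and 3695 in the controls and 644, 201, 219, 8 and 97 in the tumors. The summed level of 8 neuron markers over all cells was 5157 to 5873 CPM in controls and 297 to 2111 CPM in tumors. Any pair of the 8 libraries other than control 4, whose barcode list could not be aligned with its matrix, shared at most 9 cell barcodes. The kept cells held 11.8% to 13.6% of the deposited UMIs in controls and 28.3% to 54.1% in tumors, with a mean mitochondrial share of 7.59% to 8.72% and 2.15% to 10.5%. With a fixed mitochondrial limit of 10%, tumors 3, 4 and 5 kept 4287, 9177 and 9138 cells in place of 1720, 5108 and 3645, whereas tumor 1 fell from 2352 to 1254, tumor 2 went from 3063 to 3052 and the controls kept 3842 to 5052.

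Over all kept cells, transcripts for the vasodilator peptide adrenomedullin, the lipid droplet protein Hilpda, the mTOR inhibitor Ddit4, the oxygen-sensing hydroxylase Egln3 and Hif1a were higher in the tumors, and those for P4ha1, Ankrd37, Car9, Ndrg1 and Bnip3 did not pass the test. With edgeR's quasi-likelihood test and Benjamini-Hochberg adjustment at 0.05, 5 of the 10 members were higher and 0 were lower. Of 17592 genes tested, 61.6% were called, 32.3% higher and 29.3% lower, so calls were common in this comparison. Where groups are said not to overlap, here and below, the share of all genes without overlap was not counted. The median log2 fold change was 1.01 over the members and 0.04 over all genes tested. Markers of other cells moved as well: over all cells the 8 endothelial markers summed to 73.6 to 125 CPM in controls and 452 to 2544 CPM in tumors, and the 10 microglia markers to 583 to 694 and 2431 to 11499 CPM. The part of microglia and of neurons in these differences was not tested, and sums without endothelial-like cells are given further on. In sums over a tissue, fewer cells of a type and less RNA per cell cannot be told apart.

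**Figure D1:**
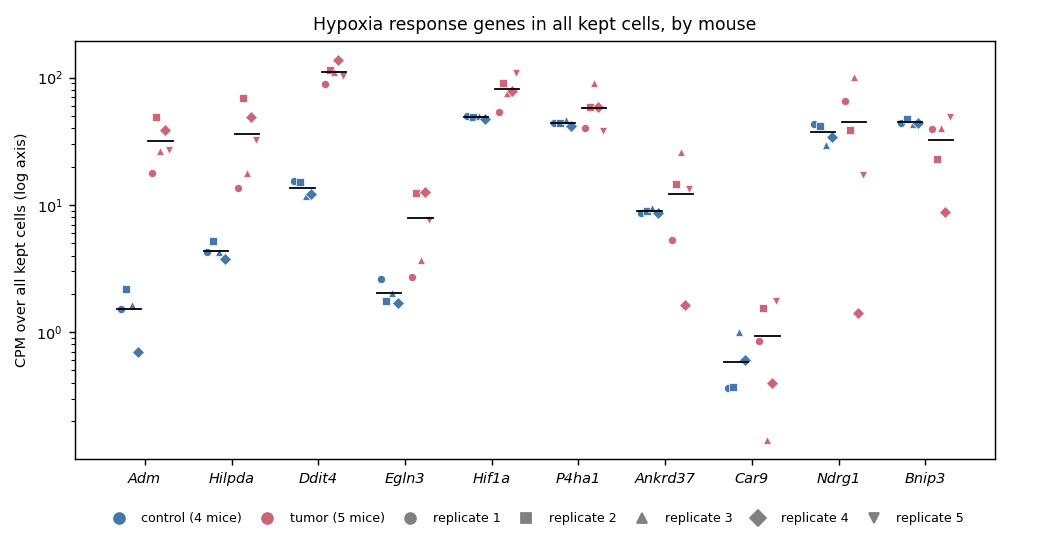
CPM of each member over all kept cells (vertical log axis), with 1 point per mouse, controls in blue and tumors in red, marker shape giving the replicate number and black bars the group means. Adm, Hilpda, Ddit4, Egln3 and Hif1a did not overlap between groups, whereas Ndrg1 in tumors ran from 1.41 to 101 CPM. Of all genes tested 61.6% were called, and the share without overlap was not counted.

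The oxygen sensor and the factor were taken first. Hif1a, the oxygen-regulated alpha subunit, lay on chromosome 12 (GRCm38, 73901375 to 73947530, plus strand) and measured 49.5, 48.9, 49.6 and 47.7 CPM in controls 1 to 4. In tumors 1 to 5 it measured 53.7, 90.3, 75.3, 77.8 and 109 CPM. Every tumor was above every control, tumor 1 by the least, and the log2 fold change was 1.02 (SE 0.26, adjusted p = 0.00747). Egln3, a prolyl hydroxylase that is itself a HIF target, measured 2.62, 1.77, 2.02 and 1.71 CPM in controls and 2.72, 12.4, 3.69, 12.7 and 7.66 CPM in tumors. The groups did not overlap, but tumors 1 and 3, those with few fusion-allele cells, were close to the controls. Its log2 fold change was 2.33 (SE 0.57, adjusted p = 0.00624).

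Adm and Hilpda had the largest log2 fold changes of the members. Adm encodes adrenomedullin, a peptide that widens vessels and acts on endothelium, and lies on chromosome 7 (110627661 to 110629820, plus strand). It measured 1.53, 2.19, 1.64 and 0.691 CPM in controls and 17.8, 49.3, 26.3, 38.6 and 27.1 CPM in tumors. No tumor came near a control, and the log2 fold change was 4.71 (SE 0.51, adjusted p = 0.000168). Hilpda, which blocks the breakdown of stored lipid, measured 4.22, 5.17, 4.29 and 3.78 CPM in controls and 13.6, 68.9, 17.8, 48.8 and 32.3 CPM in tumors. All tumors exceeded all controls, with tumors 1 and 3 again lowest, and the log2 fold change was 3.41 (SE 0.58, adjusted p = 0.00103).

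Ddit4 (also called REDD1) restrains mTORC1 under low oxygen, low energy and glucocorticoids. It measured 15.5, 15.0, 11.7 and 12.1 CPM in controls and 89.5, 115, 111, 138 and 103 CPM in tumors. Every tumor was far above every control, with a log2 fold change of 3.32 (SE 0.26, adjusted p = 6.92e-05). Genes that answer to other signals acting on Ddit4 were counted as well, to be read against the 61.6% of all genes called here (32.3% higher and 29.3% lower). Of 6 further glucocorticoid targets 4 were higher and 0 lower, led by Mt2 (log2 fold change 2.12), Sgk1 (2.03), Tsc22d3 (1.98) and Fkbp5 (1.83). Of 6 genes of the integrated stress response 4 were higher and 1 lower, among them Trib3 (2.28), Chac1 (1.48) and Sesn2 (1.04), with Asns lower (-0.88). Of 10 immediate early and heat shock genes, which dissociation of tissue can raise, 9 were higher and 0 lower, with the largest changes in Atf3 (7.31), Hspa1b (6.43), Hspa1a (6.05) and Fos (4.61). Their summed level was 206 to 369 CPM in controls and 581 to 4778 CPM in tumors. The part of these signals in the level of Ddit4 was not tested.

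The remaining members did not pass the test over all cells. P4ha1, the catalytic subunit of collagen prolyl hydroxylase, measured 41.9 to 46.2 CPM in controls and 40.1, 58.4, 90.8, 59.2 and 38.0 CPM in tumors (log2 fold change 0.63, adjusted p = 0.0539 with edgeR). Bnip3, a receptor for the removal of mitochondria, measured 42.9 to 47.0 CPM in controls and 39.4, 23.1, 40.2, 8.76 and 49.0 CPM in tumors. Tumor 4 was lowest for Bnip3 and the groups overlapped. Ankrd37, a small ankyrin-repeat protein, measured 8.57 to 9.41 CPM in controls and 5.27, 14.6, 25.9, 1.62 and 13.4 CPM in tumors. Ndrg1, a stress-responsive gene that is also abundant in myelinating cells, measured 29.6 to 43.0 CPM in controls and 65.8, 38.9, 101, 1.41 and 17.1 CPM in tumors. For both Ankrd37 and Ndrg1 the tumors lay on either side of the controls, with tumor 3 highest and tumor 4 lowest. Car9, the cell surface carbonic anhydrase often used as a marker of hypoxic tumor, was close to the limit of detection, at 0.364 to 1.01 CPM in controls (42 UMIs in all) and 0.142 to 1.74 CPM in tumors (75 UMIs). It was not called (with a fixed mitochondrial limit of 10% it was, at a log2 fold change of 1.65 and an edgeR adjusted p of 0.0215).

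Genes of the same pathway were read from lists of related genes. Of 10 genes of the HIF machinery, 6 were higher and 1 was lower in tumors over all cells, where 61.6% of all genes were called, 32.3% higher and 29.3% lower. The largest changes were in Hif3a (log2 fold change 2.81, SE 0.47), an alpha subunit that can oppose the others, in Epas1 (2.30, SE 0.32), the alpha subunit prominent in endothelium, in the hydroxylase Egln1 (1.78, SE 0.33) and in the ligase subunit Rbx1 (1.38, SE 0.34). Hif1an, the asparaginyl hydroxylase that limits HIF activity, was lower (-0.67, SE 0.17). Of 25 further HIF targets, 14 were higher, 4 were lower and 7 were not called. Among those higher were the lipid droplet gene Plin2 (4.39), the glucose transporter Slc2a1 (3.68) and the collagen crosslinking enzyme Lox (2.55). Pdk1 was lower (-1.23), as were Car12 (-1.17), Pfkfb4 (-0.74) and Ankzf1 (-0.61). The genes that were lower are named because they were few, after their values had been seen. The lists had median log2 fold changes of 0.92 and 0.89, against 0.04 over all genes tested.

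Within the tumors, the members were distributed over cell types in different ways. Cells were gated by marker genes that include none of the members, and a cell left without a clear class was called ungated, which held for 50.2% of tumor cells. Of the 7 classes set side by side, endothelial-like cells had the highest mean levels of Adm, Ankrd37 and Hilpda. They carried the endothelial markers Cldn5, Pecam1, Cdh5 and others at a summed 11272 to 19429 CPM. Adm measured 118, 623, 167, 183 and 425 CPM there in tumors 1 to 5, from 116, 97, 163, 91 and 61 cells. In microglia-like cells it measured 0, 7.86, 0.527, 3.93 and 20.5 CPM, the first from 0 UMIs, which allows up to 5.39 CPM. In neural-progenitor-like cells (cells with cycling or radial glia markers, at least 20 of them in tumors 2 to 5) it measured 19.5, 15.8, 34.4 and 10.2 CPM. Of the 7 gated classes, endothelial-like cells had the highest Adm in each of the 5 tumors. They made up 3.32% of tumor cells and 2.86% of UMIs, and held 21.4% of the Adm UMIs. This share was 36.2%, 31.6%, 74.6%, 7.37% and 22.3% in tumors 1 to 5, and 34.4% over the other tumors without tumor 4.

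**Figure D2:**
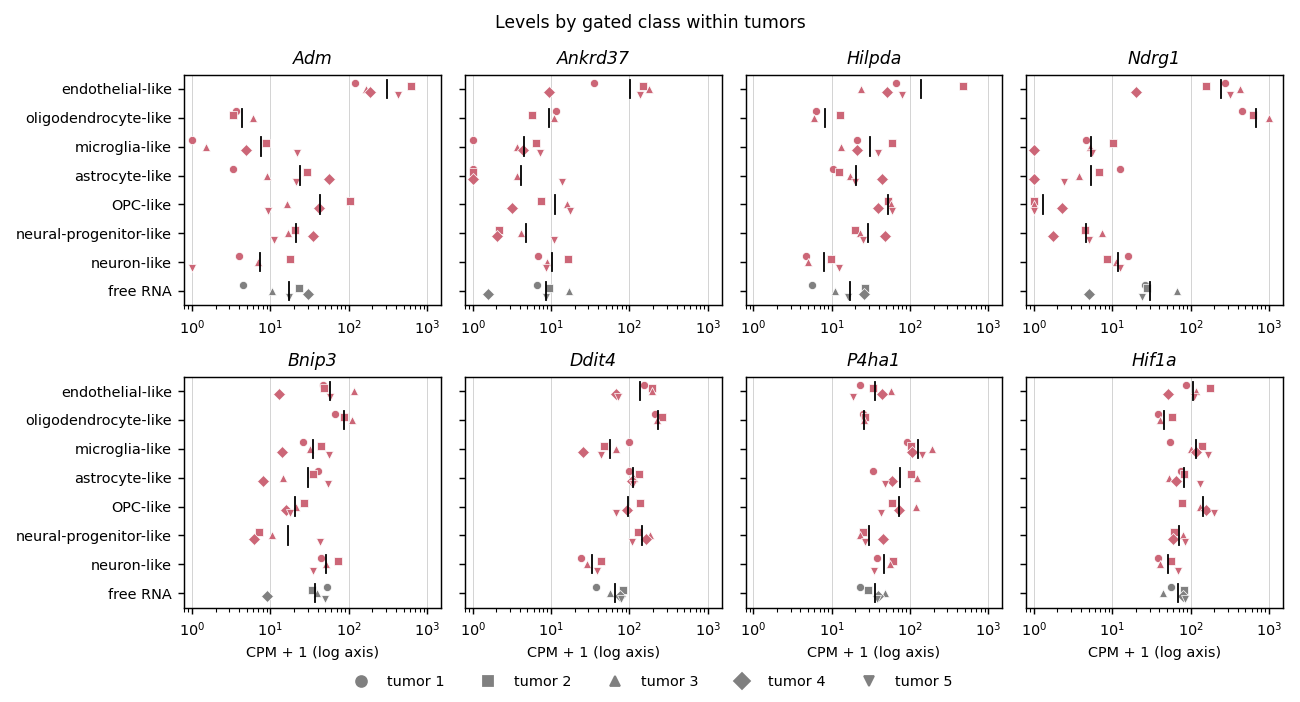
CPM plus 1 (horizontal log axis) of 8 members in 7 gated classes of tumors and in free RNA (grey). Free RNA stands for the 3000 smallest barcodes of each library. There is 1 point per tumor, with marker shape giving the tumor and black bars the means. By the means, Adm, Ankrd37 and Hilpda lay furthest right in endothelial-like cells, Ndrg1 in endothelial-like and oligodendrocyte-like cells, and P4ha1 in microglia-like cells. In tumor 3 Hilpda was higher in OPC-like than in endothelial-like cells, at 55.8 against 23.0 CPM.

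Ankrd37 had the same place. It measured 34.1, 149, 176, 8.56 and 136 CPM in endothelial-like cells, and was again highest there in 5 of 5 tumors. Of its UMIs 34.6% came from these cells, from 8.20% in tumor 4 to 79.7% in tumor 3, and 19.9% without tumor 3. Hilpda measured 65.1, 466, 23.0, 49.7 and 78.9 CPM and was highest there in 4 of 5 tumors when the 7 classes were set side by side. In tumor 4, radial-glia-like cells taken apart from cycling cells were higher still, at 64.0 CPM. Cells with markers of oligodendrocyte precursors (OPC-like) led in tumor 3, at 55.8 CPM, and held 37.8 to 58.3 CPM over tumors 2 to 5. Mural-like cells, outside the 7 classes, had Hilpda at 29.1 and 33.5 CPM in 2 tumors, from 7 UMIs. Tumor 2 stood apart for Hilpda. Of Hilpda UMIs 7.63% were in endothelial-like cells, but without tumor 2 the share was 3.40%, beside 3.36% of cells, and without tumor 4 it was 13.5%. Egln3 was sparse. In endothelial-like cells it measured 0, 2.37, 0, 1.71 and 13.2 CPM in tumors 1 to 5, from 0, 1, 0, 1 and 3 UMIs. OPC-like cells had Egln3 at 25.8, 10.1, 25.8 and 8.33 CPM in tumors 2 to 5, from 4, 2, 60 and 1 UMIs. Only tumor 4 gave a firm value. Neural-progenitor-like cells had 10.6, 9.49, 13.0 and 5.27 CPM in tumors 2 to 5 and microglia-like cells 1.80, 8.28, 2.63, 3.37 and 17.9 CPM in the 5 tumors. Free RNA was read from the 3000 smallest barcodes of each library. Medians of these barcodes were 559 to 649 UMIs in tumors and 691 to 1338 UMIs in controls. Whether they held cells was not tested. Deposited libraries held 9001 to 26341 barcodes in tumors and 75222 to 86516 in controls. The smallest barcode held 500 UMIs in each tumor and 468 to 517 UMIs in controls, so smaller droplets were absent. All 9001 barcodes of tumor 3 were among the 10000 considered as cells, so its free RNA came from barcodes that were also candidate cells. In free RNA of tumors 1 to 5 Egln3 was at 3.99, 11.9, 5.35, 8.14 and 5.53 CPM. In tumors 2 and 5 this was above neural-progenitor-like cells, and in tumors 1 to 4 it was above microglia-like cells.

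Each class was set against the mean of the other 6 classes with the tumor as a block, a comparison added after the data had been seen. In endothelial-like cells, where 42.2% of 11849 tested genes were called, 21.8% higher and 20.4% lower, 7 of the 8 members tested were higher and 0 were lower. The log2 fold changes were 4.87 (SE 0.31) for Adm, 4.44 (SE 0.25) for Ndrg1, 4.12 (SE 0.34) for Ankrd37 and 2.69 (SE 0.35) for Hilpda, with edgeR adjusted p of 2.97e-14, 5.77e-16, 8.72e-12 and 1.46e-07. Bnip3 (0.86), Ddit4 (0.66) and Hif1a (0.61) passed with smaller changes. Without tumor 3 these latter 3 calls were lost, at log2 fold changes of 0.24, 0.44 and 0.45, and without tumor 2 those of Ddit4 (0.54) and Hif1a (0.37) were. Car9 and Egln3 had too few UMIs to be tested. The median log2 fold change was 1.77 over the 8 tested and -0.12 over all genes tested. Of the 22 further HIF targets tested there, 10 were higher and 3 lower, among the former the blood-brain barrier glucose transporter Slc2a1 (6.00, SE 0.14), and of the HIF machinery Epas1 was higher by 4.03 (SE 0.21).

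Ndrg1 had a second site. In oligodendrocyte-like cells, of which tumors 1 to 3 held 99, 103 and 24, it measured 446, 622 and 986 CPM, and in endothelial-like cells 276, 156, 429, 18.8 and 320 CPM. The 8 oligodendrocyte markers summed to 14272 to 25770 CPM in the former and 411 to 1355 CPM in the latter. It stayed between 0 and 9.11 CPM among microglia and between 0.748 and 6.33 CPM among neural progenitors. Oligodendrocyte-like and endothelial-like cells, 1.56% and 3.32% of tumor cells, held 32.1% and 28.5% of its UMIs. Without tumor 3 the endothelial-like share was 17.4%. Tumor 4, where Ndrg1 was 1.41 CPM over all cells, held 3 oligodendrocyte-like cells, and its 91 endothelial-like cells held 11 Ndrg1 UMIs. Against the mean of the other classes, oligodendrocyte-like cells were higher for Ndrg1 (5.87, SE 0.27), Bnip3 (1.45, SE 0.39) and Ddit4 (1.39, SE 0.24) and lower for P4ha1 (-0.97, SE 0.34), where 27.9% of all genes were called, 14.1% higher and 13.8% lower. The call of P4ha1 was lost without any 1 of tumors 1, 2 and 3 (-1.16, -0.94 and -0.71). The fitted fold of Ndrg1 in these class comparisons depends in part on OPC-like cells, which held 3 Ndrg1 UMIs in the tumors fitted, all in tumor 4.

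Of the 7 classes, microglia-like cells had the highest P4ha1 in 4 of 5 tumors, whereas Hif1a was highest in OPC-like cells in 3 tumors and in endothelial-like cells in 2. Hif1a measured 77.3, 132, 156 and 200 CPM in OPC-like cells of tumors 2 to 5, from 12, 26, 363 and 24 UMIs. In microglia-like cells P4ha1 measured 91.6, 103, 188, 105 and 140 CPM, and Hif1a measured 53.9, 138, 98.5, 117 and 166 CPM. In neural-progenitor-like cells of tumors 2 to 5, P4ha1 measured 24.2, 22.1, 44.6 and 25.4 CPM and did not overlap with microglia-like cells, while Hif1a measured 60.2, 79.1, 59.1 and 84.1 CPM. Mural-like cells, which are not among the 7 classes, had P4ha1 at 107 and 168 CPM in tumors 3 and 4, from 28 and 24 cells. Against the mean of the other classes (48.4% called, 26.2% higher and 22.2% lower), microglia-like cells were higher for P4ha1 (2.05, SE 0.16) and Hif1a (1.09, SE 0.19) and lower for Ndrg1 (-1.65), Adm (-1.35) and Ddit4 (-0.53). Neuron-like cells of the tumors, with 57.1% of genes called (33.2% higher and 24% lower), were lower for 5 members, Hilpda (-2.43), Ddit4 (-2.23), Adm (-1.54), Ndrg1 (-1.25) and Hif1a (-1.09), and higher for 0. In astrocyte-like and OPC-like cells (22.8% and 15.9% called) Ndrg1 was the only tested member called, and it was lower in both (-2.15 in astrocyte-like cells). No fold is given for OPC-like cells, since 3 of the 4 tumors held 0 Ndrg1 UMIs in them. Several of these calls were lost when 1 tumor was left out. In microglia-like cells that of Adm was lost without any 1 of tumors 1 to 4 (-1.38 to -1.11) and that of Ddit4 without tumor 2 or 4 (-0.43 and -0.45). In neuron-like cells that of Adm was lost without tumor 1, 2, 3 or 5 (-1.55, -2, -1.69 and -1.25) and that of Ndrg1 without tumor 2 (-1.14). Ndrg1 was also not called in OPC-like cells without tumor 3, nor without tumor 4 in microglia-like (-0.91), astrocyte-like (-1.29) or neuron-like cells (-0.48).

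Ddit4 had its highest level in oligodendrocyte-like cells in tumors 1 to 3, at 214, 257 and 227 CPM, followed by endothelial-like cells at 152, 192 and 191 CPM. Neural-progenitor-like cells led in tumor 4 and astrocyte-like cells in tumor 5. Glucocorticoid targets summed to 1173 to 2486 CPM in oligodendrocyte-like cells and 580 to 1042 CPM in endothelial-like cells. They summed to 488 to 919 CPM in microglia-like and 171 to 418 CPM in neural-progenitor-like cells. Their part in the level of Ddit4 by class was not tested. Ddit4 measured 126, 183, 160 and 108 CPM in neural-progenitor-like cells of tumors 2 to 5, whereas microglia-like cells of those tumors had 46.8, 66.4, 24.7 and 42.9 CPM. The ranges did not overlap. In the paired comparison of these classes in 4 tumors (11088 genes tested, 50.6% called, 26.2% higher and 24.4% lower), 7 members were tested. Ddit4 was higher in progenitors (log2 fold change 1.30, SE 0.24, adjusted p = 0.00125), and P4ha1 (-2.49, SE 0.26), Bnip3 (-1.82, SE 0.38) and Hif1a (-1.33, SE 0.18) were lower. The call for Bnip3 was lost without the tumor block (-1.50, edgeR adjusted p = 0.0924). Against the mean of the other 6 classes (42% called, 22.1% higher and 19.9% lower) progenitors were higher for Ddit4 (0.72) and lower for Ndrg1, Ankrd37, Bnip3 and P4ha1 (-2.35, -1.51, -1.51 and -0.90). Without tumor 4 the call of Ndrg1 was lost (-1.77), and without tumor 2 or 5 that of Ankrd37 was (-1.13 and -1.77).

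Cycling cells were also set against radial-glia-like cells of the same tumors, where 7 members were tested. Hilpda measured 19.8, 18.2, 28.8 and 23.2 CPM in cycling and 16.8, 24.3, 64.0 and 26.9 CPM in radial-glia-like cells of tumors 2 to 5. It was lower in cycling cells in 3 of 4 tumors, and it was the only 1 of the members called among 9748 genes, of which 20.8% were called and 8.42% were lower (log2 fold change -0.64, SE 0.22, adjusted p = 0.0499 with edgeR). The call rests on tumor 4, without which the log2 fold change was -0.02, and was also lost without tumor 3 (-0.66).

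Whether the tumor-to-control differences held within a cell type could be asked of neuron-like cells in 4 tumors and 4 controls. The gate set control neuron-like cells little apart from the library they came from: their 8 neuron markers summed to 5475 to 6122 CPM, against 5157 to 5873 CPM over all control cells, and their 8 astrocyte markers to 1113 to 1193 CPM, against 1404 to 1512 CPM. In tumor neuron-like cells these lists summed to 3766 to 8772 and 607 to 1398 CPM. Of 14923 genes, 14.5% were called there, 6.99% higher and 7.5% lower. Of the 9 members tested, Adm and Ddit4 were higher, Ndrg1 was lower and 6 were not called. Ddit4 measured 15.2, 14.2, 10.6 and 11.7 CPM in control neuron-like cells and 22.9, 42.2, 28.0 and 38.0 CPM in those of tumors 1, 2, 3 and 5, with no overlap (log2 fold change 1.17, SE 0.25, adjusted p = 0.00833). Adm measured 0.936 to 1.94 CPM in control and 2.95, 16.6, 6.01 and 0 CPM in tumor neuron-like cells, the last from 97 cells whose 0 UMIs allow up to 11.4 CPM. Its call (2.09, SE 0.64, adjusted p = 0.0427) rested on tumor 2, without which the log2 fold change was 0.96, and was also lost without tumor 3 (2.13, edgeR adjusted p = 0.0688). Ndrg1 measured 38.6, 34.1, 21.9 and 28.3 CPM in control and 14.7, 7.67, 10.0 and 11.4 CPM in tumor neuron-like cells, again with no overlap and with the tumors lower (-1.49, SE 0.31, adjusted p = 0.0073). Free RNA held Adm at 3.42, 22.3, 9.51 and 16.0 CPM and Ddit4 at 36.5, 81.6, 55.9 and 77.5 CPM in the same tumors, above the neuron-like cells each time. In control free RNA these were 0.954 to 2.34 and 11.1 to 23.9 CPM, and Ndrg1 there was 46.7 to 67.8 CPM, against 25.1, 27.0, 65.4 and 23.2 CPM in free RNA of the same tumors. The 8 oligodendrocyte markers summed to 482 to 564 CPM in control and 93.3 to 763 CPM in tumor neuron-like cells. The 8 endothelial markers summed to 35.0 to 40.4 CPM in control and 64.5 to 140 CPM in tumor neuron-like cells. Glucocorticoid targets summed to 191 to 217 and 330 to 480 CPM. Immediate early and heat shock genes overlapped, at 181 to 369 and 149 to 540 CPM. The part of free RNA, of these markers' cells and of these signals in the neuron-like values was not tested. Of the 22 further HIF targets tested in neuron-like cells 3 were higher and 0 lower, namely Slc2a1 (1.00, SE 0.24), the lactate dehydrogenase Ldha (0.95, SE 0.27) and the histone demethylase Kdm3a (0.57, SE 0.17). The median over these 22 was 0.02, against 0.01 over all genes tested.

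**Figure D3:**
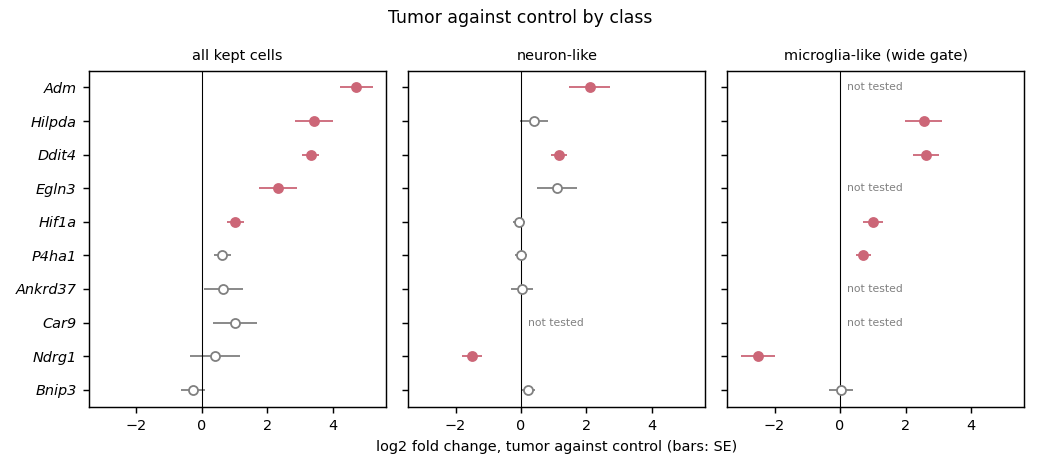
Log2 fold change of tumor against control (horizontal axis, bars are standard errors) for each member in all kept cells, in neuron-like cells and in microglia-like cells of a wide gate, with filled red points for members called by edgeR at an adjusted p under 0.05 and open grey points for the rest. Ddit4 lay to the right of 0 in all 3 panels, and Ndrg1 lay to the left in neuron-like and microglia-like cells.

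Other classes were too rare in controls under the same gate; neuron transcripts were present in control cells of the other classes. A wider gate that ignored neuron markers was added after the data had been seen, and it gave 112 to 176 microglia-like cells per control. In these control cells the 10 microglia markers summed to 13568 to 16782 CPM and the 8 neuron markers to 3965 to 4710 CPM, against 29494 to 38604 and 96.3 to 1067 CPM in the tumor cells, and the part of these differences in the values that follow was not tested. The cells of controls that passed the wide gate for astrocytes or oligodendrocytes held more neuron markers (medians of 5495 and 5494 CPM) than markers of their own class (2894 and 2131 CPM), so these classes were not compared with tumors.

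In microglia-like cells of the wide gate, 6 members could be tested in 5 tumors and 4 controls, and Ddit4, Hilpda, Hif1a and P4ha1 were higher and Ndrg1 lower, where 47.7% of 8581 genes were called, 23.1% higher and 24.7% lower. Ddit4 measured 11.5, 20.2, 9.96 and 5.44 CPM in controls and 93.3, 47.3, 64.6, 25.6 and 42.7 CPM in tumors, and Hilpda 5.44 to 9.96 CPM and 19, 54.2, 13.1, 20.0 and 36.6 CPM. Neither overlapped, and the log2 fold changes were 2.62 (SE 0.39) and 2.56 (SE 0.57). The control values were near the floor, with 22 Ddit4 and 13 Hilpda UMIs in the 4 controls. There, 3 UMIs equal 5.44 to 8.64 CPM. The call of Hilpda was lost under limma voom (2.25, limma voom adjusted p = 0.139). Free RNA held Ddit4 at 11.1 to 23.9 CPM in controls and 36.5, 81.6, 55.9, 73.8 and 77.5 CPM in tumors, above the microglia-like cells of tumors 2, 4 and 5. Free RNA held Hilpda at 2.84 to 6.49 CPM in controls and 4.56, 25.5, 10.1, 25 and 14.9 CPM in tumors, above these cells in tumor 4. The part of free RNA in these differences was not tested. Hif1a (66.3 to 107 CPM in controls, 58.5 to 167 in tumors) and P4ha1 (95.1 to 123 and 90.1 to 181) overlapped in CPM, and their log2 fold changes after TMM scaling were 1.00 (SE 0.32, adjusted p = 0.0194) and 0.71 (SE 0.22, adjusted p = 0.0199). Under the first gate only 2 controls had enough microglia-like cells, and no test was made. Mean Hif1a was 115 CPM in these controls (17 UMIs) and 115 CPM in the 5 tumors. Mean P4ha1 was 114 CPM (17 UMIs) and 125 CPM. The call of Hif1a was lost without control 1 (0.97). Ndrg1 fell from 27.4 to 47.8 CPM in controls to between 0 and 8.00 CPM in tumors (log2 fold change -2.52, SE 0.52). Summed oligodendrocyte markers in these cells were 563 to 763 CPM in controls and 19.5 to 328 CPM in tumors, and control free RNA held Ndrg1 at 46.7 to 67.8 CPM. Macrophage markers summed to 149 to 361 CPM in these control cells and 1196 to 9460 CPM in the tumor cells, immediate early and heat shock genes to 579 to 1073 and 925 to 12103 CPM, and glucocorticoid targets to 238 to 287 and 485 to 919 CPM. Their part in the members' differences was not tested. Of 15 further HIF targets tested in these cells, 5 were higher and 0 lower, with the largest change in Plin2, which coats lipid droplets (3.63, SE 0.41).

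Endothelial-like cells were rare in controls, with 60 in all under the wide gate, and were pooled without a test. Their 237252 UMIs held 2 of Adm, or 8.43 CPM with an exact Poisson 95% interval of 1.02 to 30.5, and 5 of Ankrd37, or 21.1 CPM (6.84 to 49.2). In the 551 endothelial-like cells of the tumors Adm was at 279 CPM (259 to 300) and Ankrd37 at 106 CPM (94.0 to 120). Without tumor 2 Adm was at 192 CPM (173 to 212), and without tumor 3 Ankrd37 was at 72.8 CPM (60.3 to 87.0). Under the first gate Ankrd37 was at 34.1, 149, 176, 8.56 and 136 CPM in tumors 1 to 5. Of these, tumors 1 and 4 lay within the interval of the control pool. Hilpda was at 16.9 CPM (4.59 to 43.2) in control and 126 CPM (113 to 141) in tumor cells, but without tumor 2 the latter was 43.7 CPM (35.0 to 54.0), whose interval overlapped that of the controls. Ndrg1 was at 207 CPM (153 to 273) in control and 248 CPM (229 to 269) in tumor cells (154 CPM, 136 to 174, without tumor 3), and Hif1a at 96.9 (61.5 to 145) and 103 CPM (91.0 to 117), so their intervals overlapped. Intervals here and floors throughout cover counting error only. The control pool is not free of other cells: in the only control with at least 20 such cells, endothelial markers summed to 5972 CPM, mural markers to 2793 CPM and neuron markers to 3609 CPM.

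Sums were also taken with all gated endothelial-like cells left out, an alternative added after the data had been seen. Ungated cells, which held 54.4% of Adm and 41.0% of Ankrd37 UMIs in the tumors, stayed in these sums. Whether they included endothelial cells was not tested. Adm stayed higher in tumors (12, 34.6, 7.57, 36.3 and 21.3 CPM against 0.692 to 2.19 in controls, log2 fold change 4.25), while the fold of Ankrd37 turned from 0.65 to -0.10 and that of Ndrg1 from 0.39 to -0.07, neither called. In tumor 3, which had the largest share of endothelial-like cells, Ankrd37 went from 25.9 to 5.96 CPM.

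Members were also counted together in single cells, each thinned to 1000 UMIs so that depth was equal. Of the 8 members other than Hif1a and Ddit4, 2 or more were found in 0.598%, 0.877%, 0.671% and 0.660% of cells in controls and in 0.894%, 3.17%, 2.17%, 1.02% and 1.67% of cells in tumors. The means were 0.701% ± 0.121 (SD, n = 4) and 1.78% ± 0.929 (SD, n = 5), and every tumor was above every control, though tumor 1 only just. The difference was 1.08 percentage points (two-sided exact permutation test over 126 splits, p = 0.0476). The share of such cells also rises when single members rise, and no expectation from single detection rates was set beside it. It therefore does not show whether members occur together beyond their levels. Without thinning the shares were 7.18% and 14.5%, a difference of 7.34 points that did not pass (exact permutation p = 0.0952). Cells thinned to 2000 UMIs differed by 2.70 points, and with Ddit4 and Hif1a counted too the difference was 3.71 points (exact permutation p = 0.0159 for each). Thinning to 2000 UMIs left out 3027 shallower control cells, all of control 1, and 2063 shallower tumor cells. Leaving out any 1 control gave exact permutation p from 0.0714 to 0.0893.

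**Figure D4:**
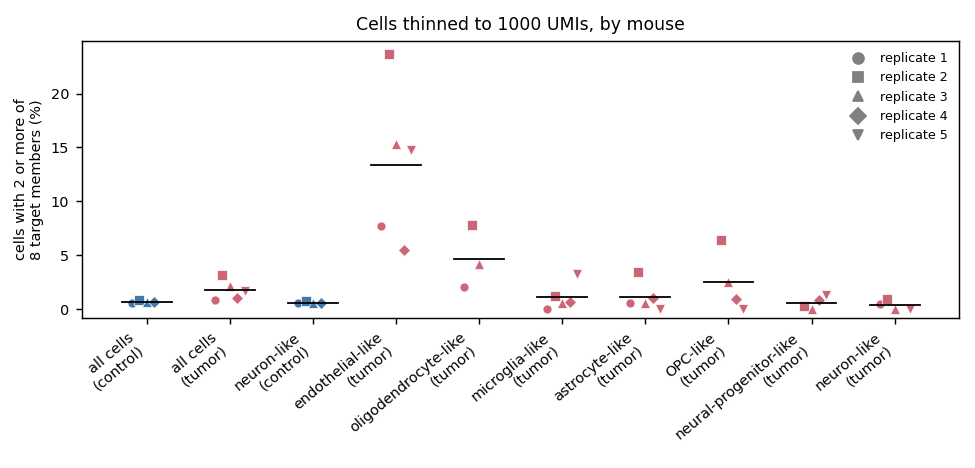
Share of cells (percent, vertical axis) with 2 or more of 8 target members after thinning each cell to 1000 UMIs, with 1 point per mouse and black bars for means, for all cells, neuron-like control cells and 7 tumor classes. Endothelial-like cells ran from 5.49% to 23.7%, against at most 0.995% in neuron-like cells.

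Endothelial-like cells had the most such cells, at 7.76%, 23.7%, 15.3%, 5.49% and 14.8% of cells in tumors 1 to 5. Oligodendrocyte-like cells had 2.04%, 7.77% and 4.17% in tumors 1 to 3, microglia-like cells 0 to 3.23% and neural-progenitor-like cells 0 to 1.32%. In neuron-like cells of tumors the share was 0 to 0.995%, and in those of controls 0.558% to 0.719%.

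The members did not move as one group over cell types. Over 29 sums of a class in a tumor with at least 50 cells, Pearson's r of log2(CPM + 10) was 0.77 between Adm and Hilpda, 0.72 between Adm and Ankrd37 and 0.69 between Ndrg1 and Ankrd37. Of 36 pairs of 9 members (Car9 had too few UMIs), 7 exceeded 0.5, 12 were below 0 and the median was 0.18. P4ha1 was negatively related to Ndrg1 (-0.43) and to Ddit4 (-0.35). Sums of the same tumor share a library and its free RNA, so these values only describe the 29 sums.

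Among 13534 genes, those with the pattern most like a member over the same 29 sums were listed by Pearson's r. For Adm they were Tnfrsf12a (0.92), a receptor for the cytokine TWEAK, the basement membrane gene Nid2 (0.92) and Pelo (0.91). For Ankrd37 they were Depp1 (0.91), the vasoconstrictor gene Edn1 (0.90) and Map3k6 (0.89), and for Hilpda they were Kdelr3 (0.80), Itgb1 (0.80) and again Tnfrsf12a (0.79). Ndrg1 was closest to Mal (0.94), a myelin gene that is also 1 of the markers of the oligodendrocyte gate, and to Klhl4 (0.93) and Myo1d (0.92). P4ha1 was closest to the lysosomal genes Hexa (0.85) and Ctsb (0.84). The 3 genes closest to Ddit4 included Rdx (0.80) and Gclm (0.80). For Egln3, Hif1a and Bnip3 the closest genes reached 0.73 (Cspg4), 0.69 (Sema4c) and 0.76 (Stambp). Cspg4 is also 1 of the markers of the OPC-like gate.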

How the data were processed

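Single-cell libraries, 5 of tumor and 4 of control, were analyzed, each taken as 1 mouse. The authors made the deposited UMI counts with Cell Ranger (6.1.2 in the matrix headers; the processing notes give 7) on mm10, with no normalization. In control 4 the deposited feature and barcode lists were shorter than the matrix, so rows followed the order of the other libraries. Of the 10000 largest barcodes, those with 200 to 6000 genes were kept, and the component of higher mitochondrial share in a mixture of 2 Gaussians (scikit-learn 1.9.0) and doublets (Scrublet in Scanpy 1.11.5, 0.8% per 1000 barcodes) were removed. Median depth was 2029 to 4112 UMIs per control cell and 2075 to 6524 per tumor cell.

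Cells were gated by 16 marker lists (at least 3 markers detected, no class outside the family above 0.5 of the share). Counts were summed per mouse, in classes of at least 20 cells, and tested with edgeR 4.0.16 (R 4.3.3; quasi-likelihood, TMM, low-count filter, Benjamini-Hochberg over all genes tested, threshold 0.05). All 10 members were named, and from other lists up to 4 called genes of largest change; some genes that these rules name are not reported here. The members and lists were chosen with earlier results of these data known. Single values were compared by exact permutation over mice. On simulated counts, 83.5% of 200 genes changed by 1.5 (log2) were recovered over all cells, with 4.57% of calls false, and 64% and 4.48% for progenitors against microglia. The simulation gave all genes the same dispersion and all libraries the same mean profile, and changed only these 200 genes. The data differ in each respect, so these rates check the code and are not error rates of the comparisons here. Alternatives were DESeq2 1.42.0, limma 3.58.1 voom, other filters, gates and thinning depths, a replicate block and leaving out each mouse. V(D)J libraries were not analysed here.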

Additional observations from a re-analysis of the deposited data

Results flagged for a closer look

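In 5 of 69 groups of 4 or 5 mice examined (7.25%), the highest value stood apart from the rest by Dixon's criterion, which chance meets in about 1 of 20 groups. These were Ankrd37 in neuron-like cells of control 3 (9.62 CPM, next 8.14), Hilpda in endothelial-like cells of tumor 2 (466 CPM, next 78.9), Bnip3 in neural-progenitor-like cells of tumor 5 (42.5 CPM, next 9.49), P4ha1 in neural-progenitor-like cells of tumor 4 (44.6 CPM, next 25.4) and Hilpda in astrocyte-like cells of tumor 4 (42.9 CPM, next 18.7).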

How the results depend on the processing

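Over all cells, the 5 calls among the members were 5 or 6 with any 1 mouse left out, and 0 members were lower each time. With endothelial-like cells left out 6 members were higher, where 60% of genes were called in either direction. With tumors 1 and 3 left out 6 were higher, where 74.1% were called in either direction. Both alternatives were chosen after seeing the data. The sign of 2 uncalled members was not stable: Ndrg1 was -0.76 under limma voom, -0.00203 with the replicate block, -0.0645 (lowest) to 0.718 (highest) with 1 mouse left out, the lowest without tumor 3 and the highest without tumor 4, -0.0658 without endothelial-like cells and -0.57 without tumors 1 and 3, and Ankrd37 was -0.13 under limma voom and -0.10 without endothelial-like cells. In neuron-like cells the 2 members called higher became 1 under limma voom, with at least 500 genes, with a mitochondrial limit of 10%, with 5000 barcodes and with a gate of 4 markers, and 0 with the replicate block. For progenitors against microglia the 1 higher became 2 without the low-count filter. For cycling against radial-glia-like cells the 1 lower became 0 with DESeq2, without the tumor block and with a gate of 4 markers. For classes against the mean of the others, counts moved without the low-count filter in microglia-like (higher 2 to 4), astrocyte-like (lower 1 to 2), oligodendrocyte-like (lower 1 to 4), OPC-like (higher 0 to 1) and progenitor (higher 1 to 2) cells. Under limma voom lower counts were 2 in astrocyte-like and 0 in oligodendrocyte-like cells, and with the mitochondrial limit 3 were lower in oligodendrocyte-like and 1 higher in OPC-like cells. The shares of all genes called under the other settings, and with 1 mouse left out, are not printed here. Counts of members under those settings therefore cannot be set against all genes. The cause of these changes was not tested.

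With 1 mouse left out at a time, counts that moved ranged from 1 to 2 higher in neuron-like cells, from 0 to 1 lower in cycling cells, and from 1 to 2 higher and 3 to 4 lower in progenitors against microglia. For classes against the others they ranged from 4 to 7 higher and 0 to 1 lower in endothelial-like cells, 2 to 3 higher and 1 to 3 lower in microglia-like cells, 0 to 2 lower in astrocyte-like and oligodendrocyte-like cells, 0 to 1 in each direction in OPC-like cells and 3 to 4 lower in neuron-like and progenitor cells. Without tumor 4 OPC-like cells held 0 Ndrg1 UMIs, so its fits in the class comparison have no stable value. The share of cells with 2 or more targets kept its sign, from 0.737 to 1.31 points with 1 mouse left out (exact permutation p from 0.0286 to 0.0893) and 7.34 points without thinning. Deviations of same-numbered tumor and control libraries from their group means had correlations of 0.00210 to 0.0463. Tumors differed more among themselves (chi-square per degree of freedom 71 to 369) than controls did (4.39 to 12.8). The correlations therefore cannot exclude that the numbers pair the libraries. The replicate block removed the calls of Egln3 over all cells, of Adm and Ddit4 in neuron-like cells and of P4ha1 in microglia-like cells of the wide gate (adjusted p of 0.0579, 0.0803, 0.0644 and 0.0578 with edgeR). Of 699 values for single members, 640 kept their direction and side of the threshold. The comparison of macrophage-like with microglia-like cells was not run, since each tumor held 0 to 5 macrophage-like cells.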

Other observations

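Neural-progenitor-like cells were split by whether Igf2, H19 and Dlk1, genes of a fetal growth program, were all detected. Ddit4 measured 126, 256, 163 and 132 CPM in cells with all 3 and 135, 123, 135 and 79.2 CPM in the rest, in tumors 2 to 5. Hilpda measured 19.1, 13.8, 44.1 and 19.6 CPM in cells with all 3 and 13.5, 29.2, 72.1 and 29.5 CPM in the rest, so that tumor 2 went one way, from 2 UMIs in the rest, and tumors 3 to 5 the other. Cells with all 3 were deeper, at medians of 6672, 3030, 8166 and 5256 UMIs against 3484, 2444, 5788 and 4308 in the rest. Detection of all 3 genes depends on depth. No test was made of this split.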
